A study of Mus musculus with 6 samples.

Results

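The genes described here are 34 collagens and stromal matrix genes, measured as RNA in CD11c-positive cells sorted from mouse melanomas. CD11c is an integrin of dendritic cells, the cell type given in the labels. The genes were chosen by symbol, as a list of matrix proteins, matrix enzymes and surface or contractile proteins of fibroblasts and pericytes. All 34 symbols matched 1 Ensembl ID each, out of 54532 IDs in the deposited table. The tumours grew from a melanoma cell line labelled BRAFV600EPTEN-/-, injected in an equal mix of Matrigel and buffer into C57BL/6 mice and harvested on day 28. In the Gli2CA group (3 libraries) the injected cells carried an active form of the transcription factor Gli2, and in the NTC group (3 libraries) a non-targeting control, both cultured with puromycin. The host strain was the same in both groups. Matrigel is an extract of basement membrane protein, and both groups received it. Tumours were digested with collagenase and DNase before the sort. The labels do not give the age or sex of the mice, whether the cell lines were single clones, or whether each library is a different mouse. The p-values below therefore rest on the spread between libraries, which may be technical.

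Collagens are triple-helical proteins that give tissue its tensile strength. Fibroblasts secrete most of the fibrillar types I, III and V, pericytes, endothelial cells and tumour cells contribute type IV collagen of basement membranes, and small proteoglycans and glycoproteins regulate how the fibres assemble. Dendritic cells are blood-derived and are not known as a source of fibrillar collagen, whereas some genes in the list, among them Fn1, Sparc and Thy1, are also expressed by other blood-derived cells.

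The 6 libraries held about 18780000 to 29130000 fragments, as recovered from the steps of the deposited FPKM values (fragments corrected for transcript length and for the size of the library). NTC 1 and NTC 3 had a value above 0 in 11374 and 11871 genes, against 14253 to 15496 in the other libraries. Itgax, which encodes CD11c, stood at 62.4 to 224 FPKM and the MHC class II gene H2-Ab1 at 26996 to 42699 FPKM, so the labelled cell type's markers were present in every library. T cell RNA was present too, with the receptor subunit gene Cd3g at 129 to 403 FPKM. Between the groups, 0 of 12266 genes tested passed with limma on log2(FPKM + 1) at an adjusted p of 0.05 (0%), while 1304 had an unadjusted p under 0.05. Limma's voom on the recovered fragments also called 0.

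Matrix RNA was concentrated in 1 control library. Summed over the 34 genes, NTC 2 held 4960 FPKM, while NTC 1 and NTC 3 held 125.7 and 83.7 FPKM. The Gli2CA libraries lay between them, at 2334, 843 and 779 FPKM. These sums were 0.609% of all FPKM in NTC 2, 0.0142% in NTC 1 and 0.00979% in NTC 3, and 0.284%, 0.102% and 0.0924% in Gli2CA 1 to Gli2CA 3. The mean sum was 1318.6 ± 879.9 FPKM (SD, n = 3) for Gli2CA and 1723.1 ± 2803.3 FPKM (SD, n = 3) for NTC, a ratio of 0.765 that became 12.6 without NTC 2. NTC 1 and NTC 3 were the libraries with fewer detected genes, and the part of detection in these sums was not tested. In bulk samples, fewer cells of a type and less RNA per cell cannot be told apart.

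**Figure D1:**
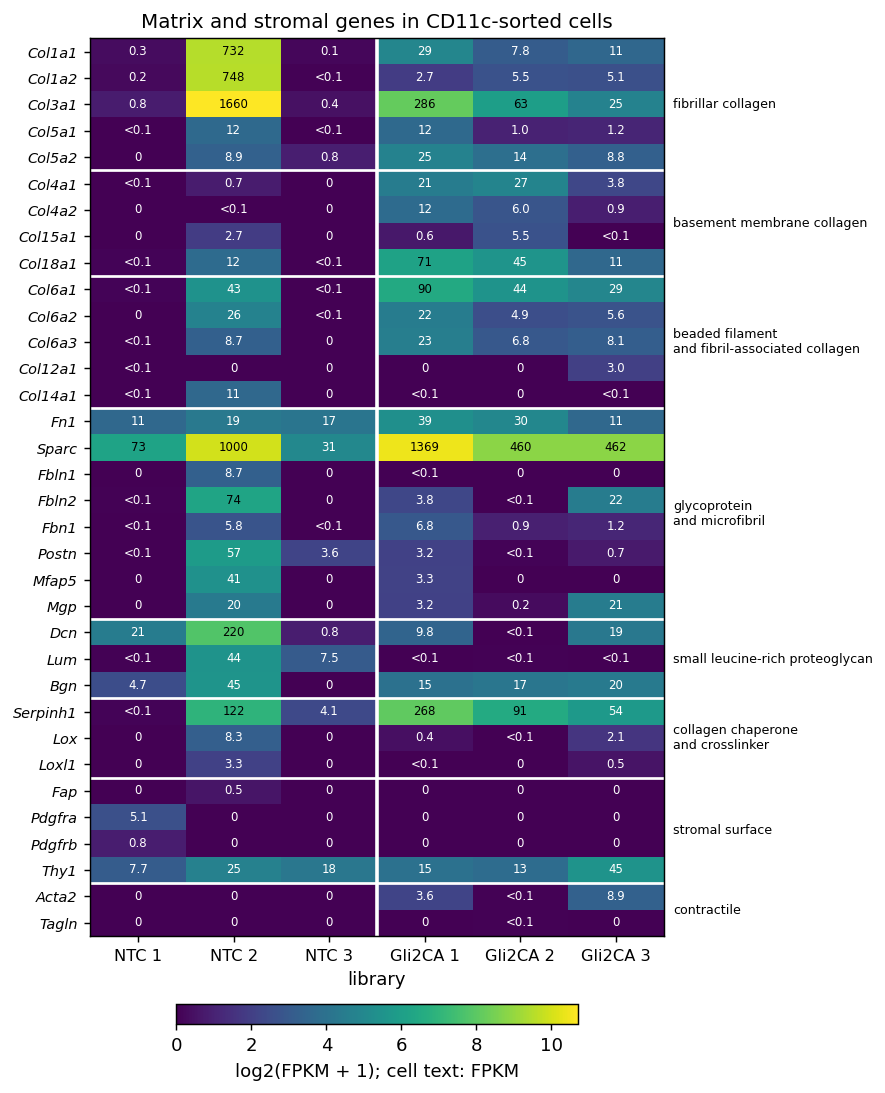
Level of each of the 34 genes (rows, grouped by role) in each library (columns), with colour as log2(FPKM + 1) and the FPKM written in each cell. Type I and III collagen genes are brightest in NTC 2, the basement membrane collagens in the Gli2CA libraries, and most cells of NTC 1 and NTC 3 are near 0.

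Counted gene by gene, NTC 2 was the highest of the 6 libraries for 16 of the 34 genes, Gli2CA 1 for 9, Gli2CA 3 for 4, Gli2CA 2 for 3, NTC 1 for 2 and NTC 3 for 0. Among all genes tested, NTC 2 was the highest library for 17.5% and NTC 3 for 19.3%. For 22 of the 34, a single library held over 50% of the FPKM summed over libraries, and in 13 of these it was NTC 2. A single library held over 50% for 19.4% of all genes tested. The genes tested average at least 1 FPKM, whereas the 34 include 6 under that mean. Each of these 6 had 86.5% or more of its FPKM in 1 library, so the counts and shares are not quite alike. In NTC 1 and NTC 3 alike, 28 of the 34 lay under 1 FPKM, and 25 lay under it in both. Among the 28 genes of the list that were tested, 20 lay under it in both, against 21.6% of all genes tested.

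The fibrillar collagens form the tensile fibres of connective tissue. Col1a1 and Col1a2 encode the chains of type I collagen. Col1a1 had 0.269, 732 and 0.146 FPKM in NTC 1, NTC 2 and NTC 3 and 28.7, 7.77 and 10.9 FPKM in Gli2CA 1, Gli2CA 2 and Gli2CA 3. Behind these values were 9, 36355 and 6 fragments in the NTC libraries and 1486, 367 and 496 in the Gli2CA libraries. Every Gli2CA library was thus above NTC 1 and NTC 3 and far below NTC 2. Col1a2 had 0.209, 748 and 0.038 FPKM in NTC and 2.70, 5.52 and 5.09 FPKM in Gli2CA. Its Gli2CA values lay between the NTC values in the same way, but Gli2CA 1 was the lowest of its group, not the highest. Col3a1, the single chain of type III collagen, reached the highest level of any gene of the list, 1659.7 FPKM in NTC 2, against 0.766 and 0.406 FPKM in NTC 1 and NTC 3. In Gli2CA it stood at 286, 63.1 and 25.4 FPKM. The type V chains, which nucleate type I fibrils, were less uneven between NTC 2 and Gli2CA. Col5a1 had 11.6 FPKM in NTC 2 and 11.5, 1.05 and 1.16 FPKM in Gli2CA, and at most 0.011 FPKM in NTC 1 and NTC 3. Col5a2 was the only fibrillar chain of the 5 whose highest value was in Gli2CA, at 25.4, 13.8 and 8.76 FPKM, against 0, 8.91 and 0.842 FPKM in NTC. Differences are given as Gli2CA minus NTC in mean log2(FPKM + 1), and the added 1 makes those of low genes smaller than the true change. For Col1a1 the difference was 0.51 ± 2.26 (SE, limma adjusted p = 0.945), which became 3.60 without NTC 2 and -5.65 without NTC 1 and NTC 3. That of Col1a2 was -0.89 ± 2.30 (limma adjusted p = 0.898), with 2.24 and -7.15 under the same choices. It also turned positive with a pseudocount of 0.1 (0.45) and with voom on the recovered fragments (0.75). The sign for both type I collagen genes thus depended on which NTC libraries entered. Col3a1 and Col5a2 lie on the same chromosome (GRCm38 chromosome 1, 45311538 to 45349706 and 45374321 to 45503282), Col1a1 on chromosome 11 (94936224 to 94953042) and Col1a2 on chromosome 6 (4504814 to 4541544). Exons of other annotated genes overlap Col3a1 and Col5a1, and whether counting used strand was not given.

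Among the collagens of the list, those of type IV were the ones whose groups did not overlap. Col4a1 and Col4a2 encode the main chains of type IV collagen, the sheet-forming collagen under endothelium and around pericytes. Col4a1 had 0.025, 0.737 and 0 FPKM in the NTC libraries and 21.2, 27.1 and 3.83 FPKM in the Gli2CA libraries. Col4a2 had 0, 0.013 and 0 FPKM in NTC, which is 1 fragment in all, and 12.5, 6.03 and 0.854 FPKM in Gli2CA. The groups did not overlap for either gene, and NTC 2, which led the fibrillar collagens, was below every Gli2CA library. The log2 difference of Col4a1 was 3.58 ± 0.94 (SE, limma adjusted p = 0.230) and that of Col4a2 was 2.48 ± 0.87 (limma adjusted p = 0.369), so neither passed. These values were 3.83 and 2.49 without NTC 2, and 3.06 and 2.47 without NTC 1 and NTC 3. Col4a1 had the smallest adjusted p of the list.

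Col4a1 and Col4a2 lie head to head on mouse chromosome 8 (GRCm38, GENCODE M21), Col4a1 at 11198423 to 11312826 on the minus strand and Col4a2 at 11312805 to 11449287 on the plus strand. Their gene models overlap by 22 bases at the start sites, so fragments from those bases cannot be assigned to 1 gene without strand. Their promoter windows are shown because the pair is transcribed outwards from 1 shared region and both genes were higher in every Gli2CA library than in any NTC library. Each window, from RefSeq on GRCm38.p6, runs 5′ to 3′ on its gene's own strand from 250 bases before the start site to 50 bases after it. The Col4a1 window is chr8:11312777-11313076 (minus strand) and the Col4a2 window is chr8:11312555-11312854 (plus strand). Capitals mark the 78 bases that both windows hold, read from opposite strands.
Col4a1: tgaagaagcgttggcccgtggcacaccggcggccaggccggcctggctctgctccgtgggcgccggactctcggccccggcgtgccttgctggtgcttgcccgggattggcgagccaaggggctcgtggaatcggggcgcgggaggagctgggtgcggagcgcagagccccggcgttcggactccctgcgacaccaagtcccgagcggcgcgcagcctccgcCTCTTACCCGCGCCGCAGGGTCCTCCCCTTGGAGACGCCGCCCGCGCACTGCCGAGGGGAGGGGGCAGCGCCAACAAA
Col4a2: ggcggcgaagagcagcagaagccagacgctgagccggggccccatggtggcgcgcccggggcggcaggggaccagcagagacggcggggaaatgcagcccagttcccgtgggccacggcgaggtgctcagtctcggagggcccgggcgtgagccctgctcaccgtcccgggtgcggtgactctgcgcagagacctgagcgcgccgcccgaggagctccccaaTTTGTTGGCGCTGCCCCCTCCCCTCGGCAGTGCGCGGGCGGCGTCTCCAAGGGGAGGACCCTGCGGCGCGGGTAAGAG
G and C made up 74% of the Col4a1 window and 73.7% of the Col4a2 window, against a median of 52.7% over 32851 promoter windows of the same length. Searching both strands, the CCAAT box (CCAAT) occurred once in each window, 145 bases before the Col4a1 start and 32 bases before the Col4a2 start, and 37.4% of all windows hold it. The GC box (GGGCGG) occurred 1 time in the Col4a1 window and 3 times in the Col4a2 window, without overlap with the CCAAT box, and 35.7% of all windows hold it. The TATA box (TATAAA) and the AP-1 element (TGANTCA) were searched too, had no match in either window, and are held by 13.6% and 7.81% of all windows. Windows were found for 19 of the 34 genes.

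The other basement membrane zone collagens were Col18a1, whose product is the precursor of the angiogenesis inhibitor endostatin, and Col15a1, its closest relative. Col18a1 had 0.079, 12.4 and 0.013 FPKM in NTC and 70.9, 44.8 and 11.2 FPKM in Gli2CA, so NTC 2 overlapped with the lowest Gli2CA library. Its log2 difference of 3.81 ± 1.21 (SE, limma adjusted p = 0.313) was the largest of the list with a pseudocount of 1, and 1.36 without NTC 1 and NTC 3. Col4a1 was larger with a pseudocount of 0.1 (5.91 against 5.71), and Col4a2 and Col4a1 were with voom (8.53 and 7.72 against 6.92). Col15a1 had 2.71 FPKM in NTC 2 and 0 in the other NTC libraries, and 0.618, 5.50 and 0.020 FPKM in Gli2CA. Gli2CA 2 set its mean, and the log2 difference went from 0.51 to -0.27 without that library. All 4 basement membrane collagens had the higher mean in Gli2CA, with sums of 105, 83.5 and 15.9 FPKM there against 0.104, 15.8 and 0.0128 FPKM in NTC.

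**Figure D2:**
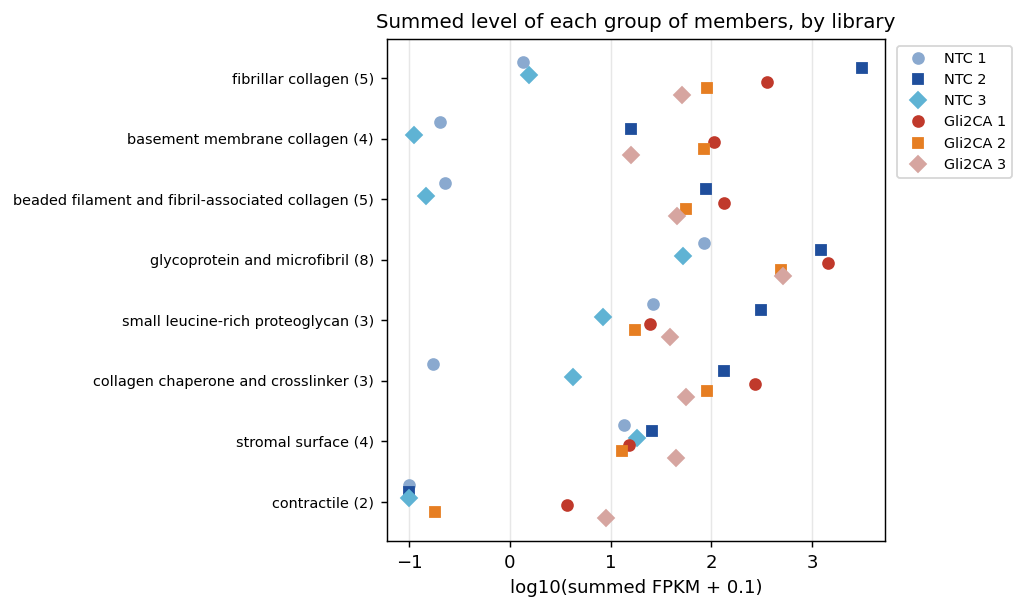
Summed FPKM of each group of genes (rows, with the number of genes) in each library, as log10(summed FPKM + 0.1). NTC 2 (dark blue square) lies to the right of every Gli2CA library for fibrillar collagens and small leucine-rich proteoglycans, and beside the lowest Gli2CA library for basement membrane collagens.

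Type VI collagen forms beaded filaments around cells. Its first chain gene Col6a1 had 0.085, 42.7 and 0.017 FPKM in NTC and 90.4, 44.0 and 28.8 FPKM in Gli2CA, so NTC 2 lay inside the Gli2CA range. Col6a3 showed the same arrangement, with 0.023, 8.75 and 0 FPKM against 22.7, 6.78 and 8.11 FPKM. Col6a2 was highest in NTC 2, with 26.2 FPKM there, at most 0.029 FPKM in NTC 1 and NTC 3, and 21.6, 4.94 and 5.64 FPKM in Gli2CA. The log2 differences of Col6a1, Col6a2 and Col6a3 were 3.77, 1.67 and 2.47 (limma adjusted p = 0.399, 0.680 and 0.479), and 0.19, -1.50 and 0.29 without NTC 1 and NTC 3. The fibril-associated collagens of the list, Col14a1 and Col12a1, were each found almost only in 1 library. Col14a1, which binds decorin-coated fibrils, had 11.3 FPKM in NTC 2 and at most 0.015 FPKM elsewhere. Col12a1, its relative in tissue under load, had 3.03 FPKM in Gli2CA 3, 1 fragment in NTC 1 and 0 in the other libraries, and was under the level tested.

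Sparc and Fn1 were the matrix genes found at a level above 10 FPKM in all 6 libraries. Sparc encodes a collagen-binding glycoprotein made by fibroblasts, endothelium and several tumours. It had 72.9, 1000.02 and 31.1 FPKM in NTC and 1369, 460.2 and 461.6 FPKM in Gli2CA, so every Gli2CA library exceeded NTC 1 and NTC 3 while NTC 2 lay within the Gli2CA range. Its log2 difference was 2.31 ± 1.12 (SE, limma adjusted p = 0.496), 3.77 without NTC 2 and -0.59 without NTC 1 and NTC 3. Fn1, which encodes fibronectin and is also expressed by macrophages, varied least of the list, with 11.4, 19.1 and 17.0 FPKM in NTC and 38.8, 29.5 and 11.1 FPKM in Gli2CA. Its groups overlapped, and the log2 difference was 0.57 ± 0.63 (limma adjusted p = 0.744).

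Glycoproteins of microfibrils and of fibre assembly were mostly an NTC 2 signal. Mfap5, a microfibril component of adventitial fibroblasts, had 41.4 FPKM in NTC 2, 3.32 FPKM in Gli2CA 1 and 0 in the other 4 libraries. Fbln1, a fibulin of elastic fibres, had 8.74 FPKM in NTC 2, 0.016 FPKM in Gli2CA 1 and 0 elsewhere. Postn encodes periostin, a protein of activated fibroblasts that links collagen to other matrix. It had 0.023, 57.3 and 3.57 FPKM in NTC and 3.18, 0.083 and 0.707 FPKM in Gli2CA. The second fibulin of the list, Fbln2, was present in NTC 2 at 73.9 FPKM and in Gli2CA 3 at 21.6 FPKM, with 3.79 FPKM in Gli2CA 1 and at most 0.034 FPKM in the rest. Mgp, a calcification inhibitor of vessels and cartilage, shared those libraries, with 20.4 FPKM in NTC 2, 21.3 in Gli2CA 3, 3.25 in Gli2CA 1 and 0.226 in Gli2CA 2. Fbn1, the fibrillin of microfibrils, had 5.79 FPKM in NTC 2 and 6.78, 0.905 and 1.25 FPKM in Gli2CA. None of these 6 genes had groups without overlap, and their limma adjusted p ran from 0.680 to 0.98.

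The small leucine-rich proteoglycans bind collagen and regulate fibril diameter. Dcn and Lum both lie on chromosome 10 (GRCm38, 97479609 to 97518143 and 97565128 to 97572703). Dcn, which encodes decorin and is a broad fibroblast gene, had 21.4, 220.1 and 0.817 FPKM in NTC and 9.80, 0.021 and 18.5 FPKM in Gli2CA. NTC 1, which had 9 fragments of Col1a1, thus had 724 fragments of Dcn. Lum, which encodes lumican, was the 1 gene of the list whose groups did not overlap in the downward direction. It had 0.043, 43.6 and 7.49 FPKM in NTC and 0.014, 0.031 and 0.016 FPKM in Gli2CA. The lack of overlap rests on 2 fragments in NTC 1 against 1, 2 and 1 in Gli2CA, so at this depth NTC 1 could not be told from them. The log2 difference of Lum was -2.85 ± 1.28 (SE, limma adjusted p = 0.479), -1.55 without NTC 2 and -5.45 without NTC 1 and NTC 3. Bgn, which encodes biglycan, differed from Dcn in having like levels in the Gli2CA libraries, 14.7, 17.4 and 19.8 FPKM, against 4.70, 45.2 and 0 FPKM in NTC.

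Serpinh1, the endoplasmic reticulum chaperone that procollagen needs to fold, had 0.071, 122 and 4.15 FPKM in NTC and 268, 91.2 and 53.8 FPKM in Gli2CA. It was the second most abundant gene of the list in Gli2CA 2 and Gli2CA 3, after Sparc. Its log2 difference of 3.66 ± 1.53 (SE, limma adjusted p = 0.452) became 5.56 without NTC 2 and -0.15 without NTC 1 and NTC 3. Lox and Loxl1, the crosslinking enzymes of the list, did not share that pattern. Lox, lysyl oxidase, had 8.31 FPKM in NTC 2, 2.14 in Gli2CA 3 and 0.374 in Gli2CA 1, and at most 0.009 FPKM elsewhere. Loxl1, its relative in elastic fibres, had 3.25 FPKM in NTC 2 and 0.488 in Gli2CA 3, and fell below the level tested. Outside the list, Loxl3 had 0.059, 9.26 and 0.024 FPKM in NTC and 17.8, 13.2 and 7.70 FPKM in Gli2CA. Loxl4 had 0 in all NTC libraries and 20.4, 5.61 and 15.6 FPKM in Gli2CA, and Loxl2 had at most 0.230 FPKM.

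Of the 4 surface genes, Fap, Pdgfra and Pdgfrb were at or near 0 in nearly all libraries, also where collagen was high. Fap, fibroblast activation protein, had 0.536 FPKM (28 fragments) in NTC 2 and was listed at 0 in the other 5 libraries. Pdgfra and Pdgfrb, the PDGF receptors of fibroblasts and pericytes, were listed at 0 in NTC 2 and in all Gli2CA libraries. Their only values were 5.08 FPKM (262 fragments) and 0.806 FPKM (82 fragments) in NTC 1, a library with almost no collagen. A count of 0 in NTC 2 allowed up to 0.0392 FPKM of Pdgfra and 0.0199 FPKM of Pdgfrb, taking 3 fragments as the limit and counting error only. The contractile genes Acta2 and Tagln, of smooth muscle and myofibroblasts, were listed at 0 in all 3 NTC libraries. Acta2 had 3.60, 0.042 and 8.94 FPKM in Gli2CA, the value of Gli2CA 2 being 2 fragments, and its difference was 1.86 ± 0.89 (SE, limma adjusted p = 0.495). Tagln had 1 fragment in Gli2CA 2 and 0 elsewhere.

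Thy1, a surface protein of fibroblasts that mouse T cells also carry, was present in all 6 libraries, at 7.72, 24.9 and 18.0 FPKM in NTC and 15.1, 12.9 and 44.7 FPKM in Gli2CA. Its groups overlapped (log2 difference 0.42 ± 0.71, SE, limma adjusted p = 0.843). The T cell receptor gene Trac stood beside it at 413, 729 and 516 FPKM in NTC and 189, 239 and 266 FPKM in Gli2CA. The part of T cell RNA in the Thy1 values was not tested.

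Across the list, 28 of the 34 genes had a mean of at least 1 FPKM and were tested. That mean is taken over all 6 libraries, so a gene high in 1 library could pass through it alone. None of the 28 passed with limma (adjusted p of 0.230 to 0.98), where 0% of all genes tested did. At an unadjusted p under 0.05, 6 were higher and 0 lower in Gli2CA, against 7.82% and 2.81% of all genes tested, and voom had 6 higher and 1 lower, against 10.5% and 2.7% of all genes. The 6 in the limma test were Col4a1, Col4a2, Col18a1, Col5a2, Col6a1 and Serpinh1. The groups did not overlap for 3 of the genes in the upward direction, Col4a1, Col4a2 and Acta2, and for Lum in the downward direction, where 10.9% and 5.79% of all genes tested did not overlap. The upward share is near that background and is no result about the list. The median log2 difference of the 28 was 0.73, beside 0.25 for all genes tested, and 20 of the 28 were above 0. After quantile normalization the medians were 0.35 and -0.03, with a pseudocount of 0.1 they were 2.29 and 0.42, and with voom 2.54 and 0.45.

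**Figure D3:**
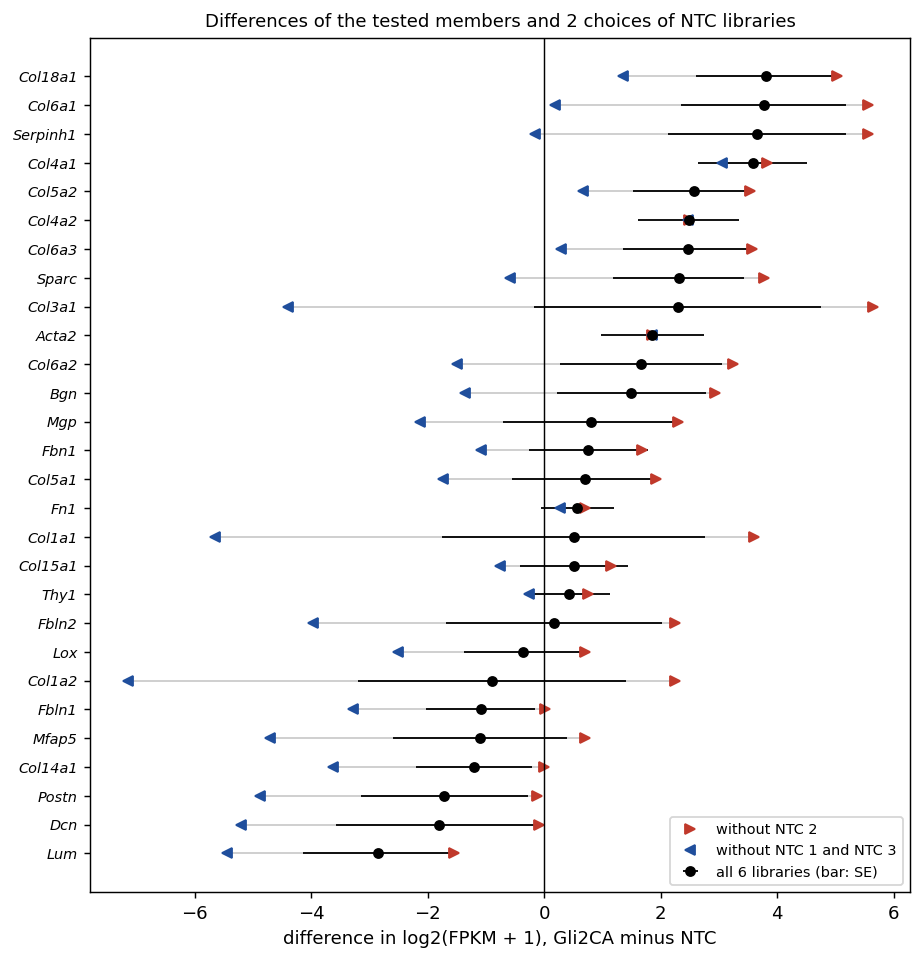
Difference in log2(FPKM + 1), Gli2CA minus NTC, of the 28 genes tested, with all 6 libraries (black, bar is the SE), without NTC 2 (red) and without NTC 1 and NTC 3 (blue, a single NTC library). Col1a2 spans 2.24 to -7.15, whereas Col4a1 and Col4a2 stay between 2.47 and 3.83.

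How far a single library decided this comparison can be read from leaving it out. Without NTC 2 the median log2 difference of the 28 was 2.24, beside 0.48 for all genes tested. Of all 34 genes, 19 then lay wholly above NTC 1 and NTC 3 in Gli2CA and 1 wholly below, where 25.3% and 12.3% of all genes tested did. Of the 28, 0 passed (smallest limma adjusted p = 0.0883), as did 0% of all genes tested, and 13 had an unadjusted p under 0.05, all higher, against 15.7% of all genes tested in that direction. With NTC 2 as the lone NTC library, assumed to vary like the Gli2CA group, the median was -1.42, beside -0.10 for all genes tested, and again 0 passed (smallest limma adjusted p = 0.0642). By position, NTC 2 was above all Gli2CA libraries for 16 of the 34 genes, within their range for 15 and below all of them for 3, Col4a1, Col4a2 and Acta2. Of all genes tested, NTC 2 was above all Gli2CA libraries for 30.8% and below all of them for 23.1%.

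Ratios between genes within a library restate the levels above as proportions. Most divide by Col1a1 or Col1a2, genes in which NTC 2 stood far above Gli2CA, so they are a description and no separate evidence. A gene that other cells also express, such as Sparc, can have a high ratio where Col1a1 is low. The ratios also depend on the transcript length the authors divided by, which is the same in every library, so they are compared between libraries only. NTC 1 and NTC 3 had too few fragments for most of them, under 30 of a gene. Serpinh1 over Col1a1 was 0.166 in NTC 2 (95% counting interval 0.161 to 0.171) and 9.37, 11.7 and 4.92 in Gli2CA. Sparc over Col1a1 was 1.37 in NTC 2 and 47.8, 59.2 and 42.2 in Gli2CA. Col18a1 over Col1a2 was 0.0165 in NTC 2 and 26.2, 8.13 and 2.19 in Gli2CA. In each of these NTC 2 was below all 3 Gli2CA libraries, and 1 NTC library gives no spread to test that against. Ratios between chains that share a collagen molecule also differed between libraries. Col1a1 over Col1a2 was 0.978 in NTC 2 and 10.6, 1.41 and 2.15 in Gli2CA. For type V, Col5a2 over Col5a1 was 0.765 in NTC 2 and 2.21, 13.3 and 7.54 in Gli2CA. Within type VI, Col6a1 over Col6a2 was 1.63 in NTC 2 and 4.18, 8.92 and 5.11 in Gli2CA. Col6a1 over Col6a3 was 4.88 in NTC 2, inside the Gli2CA range of 3.98, 6.49 and 3.55. Col3a1 over Col1a1 was 2.27 in NTC 2 and 2.32 in Gli2CA 3, against 9.97 and 8.12 in Gli2CA 1 and Gli2CA 2.

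**Figure D4:**
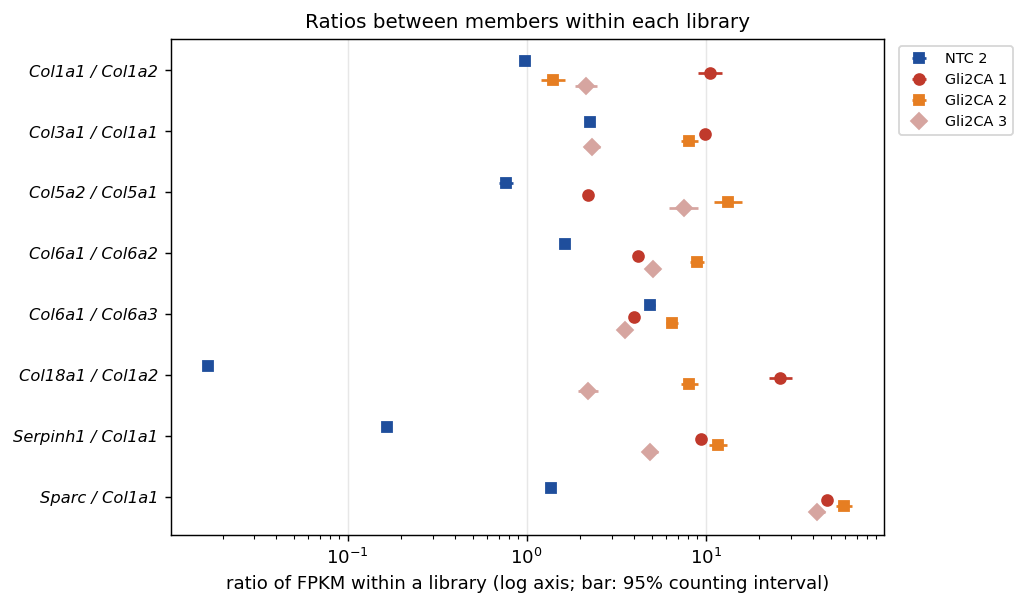
Ratio of FPKM between pairs of genes within a library, on a log axis, with 95% counting intervals, for libraries with at least 30 fragments of both genes. NTC 2 (blue square) is left of all 3 Gli2CA libraries for every pair drawn except Col6a1 over Col6a3, and for Col3a1 over Col1a1 its interval overlaps that of Gli2CA 3.

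Other matrix genes, from 4 lists, were read beside the 34. For the counts of differences above 0 in these and the marker lists, 59.7% of all genes tested had one. Of 18 further collagens, 4 were tested and 0 passed with limma (smallest adjusted p = 0.364), all 4 with a log2 difference above 0. Col8a1, a short-chain collagen of vessel walls, had 0.01, 9.45 and 0.03 FPKM in NTC and 63.1, 22.7 and 7.95 FPKM in Gli2CA. Col16a1, a fibril-associated collagen, had 0.05, 4.50 and 0 against 49.4, 5.36 and 7.89 FPKM, so its groups did not overlap. Of the 18, tested or not, 2 did not overlap upward and 0 downward, against 10.9% and 5.79% of all genes tested. Of 18 collagen-processing enzymes, 17 were tested, 0 passed (smallest limma adjusted p = 0.195) and 14 had a difference above 0. P4hb, the disulfide isomerase subunit of prolyl hydroxylase that most secreting cells express, had 191, 439 and 441 FPKM against 714, 715 and 415 FPKM. Pcolce, which speeds removal of the procollagen tail, had 0.27, 109 and 0 FPKM against 129, 17.9 and 37.9 FPKM. Of 16 basement membrane and elastic fibre genes, 13 were tested, 0 passed (smallest limma adjusted p = 0.216) and 11 had a difference above 0. Lamb1, a laminin chain, had 0.06, 0 and 0 FPKM in NTC and 34.9, 7.92 and 6.00 FPKM in Gli2CA. Mfap4, an elastic fibre protein, went the other way between these libraries, with 146 FPKM in NTC 2, 5.68 in Gli2CA 3 and at most 0.045 elsewhere. Of 13 matricellular and proteoglycan genes, 9 were tested, 0 passed (smallest limma adjusted p = 0.260) and 8 had a difference above 0. Ecm1, a secreted protein that binds basement membrane proteoglycan, had 0.44, 68.7 and 51.7 FPKM against 598, 388 and 312 FPKM.

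Markers of cell types that a CD11c gate could carry along were read in the same libraries. Of 18 fibroblast markers outside the list, 1 was at 0 in all libraries, and 14 were tested, 7 of them with a difference above 0 and 0 called by limma (smallest adjusted p = 0.195). Their sum was 2098 to 2516 FPKM in NTC and 2898 to 3880 in Gli2CA, most of it from Ly6a and Gsn, which leukocytes also express. Serpinf1 had 50.02, 214 and 0.05 FPKM in NTC and 45.8, 27.1 and 16.5 FPKM in Gli2CA, and Mmp2 had 3.92, 74.6 and 19.3 against 167, 50.3 and 18.8 FPKM. The fibroblast genes Dpt, Clec3b and Islr, named here after their values were seen, had 10.2, 10.95 and 17.2 FPKM in NTC 2 and were listed at 0 in the other 5 libraries. The list was mixed. Of the 17 markers not at 0 throughout, 8 were highest in NTC 2, where 17.5% of all genes tested were. At 1 FPKM or more stood 15 markers in NTC 2, 10 in each Gli2CA library, 5 in NTC 1 and 6 in NTC 3. The summed level, set mostly by Ly6a and Gsn, was lower in NTC 2 than in each Gli2CA library. Timp3 had 17.2 FPKM in NTC 2 and 149, 60.4 and 11.2 FPKM in Gli2CA, so NTC 2 lay within the Gli2CA range. The part of fibroblast RNA in the collagen values was not tested.

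Pericyte and melanocytic lists were read beside the basement membrane collagens. Of 12 pericyte and smooth muscle markers, 4 were at 0 in all libraries and 5 were tested, 3 with a difference above 0 and 0 called by limma (smallest adjusted p = 0.195). By mean level, 4 were higher in Gli2CA and 4 in NTC. The list summed to 19.4, 29.7 and 0.016 FPKM in NTC and 182, 53.7 and 37.6 FPKM in Gli2CA. Mcam and Cspg4, surface proteins of pericytes that are also known on melanoma cells, had 72.3, 15.3 and 8.01 FPKM and 29.5, 11.1 and 7.23 FPKM in Gli2CA, against at most 0.04 FPKM in NTC. The pericyte genes Rgs5 and Abcc9 and the muscle genes Des, Myh11 and Cnn1 were listed at 0 in every library, apart from 0.015 FPKM of Rgs5 in NTC 2. Kcnj8, a pericyte channel gene, had 3.22 FPKM in NTC 2, Myl9 had 13.1 FPKM there and 3.38 FPKM in Gli2CA 1, and Tpm2 had 19.3 FPKM in NTC 1. Of 10 melanocytic markers, 6 were at 0 in all libraries, among them the pigment genes Tyr, Tyrp1, Dct and Mlana, and the sum was 0.0297, 16.8 and 0 FPKM in NTC and 40.7, 18.0 and 29.1 FPKM in Gli2CA. Sox10, the neural crest transcription factor that melanoma cells retain, had 19.8, 12.1 and 18.4 FPKM in Gli2CA and was listed at 0 in all 3 NTC libraries (log2 difference 4.12 ± 0.75, SE, limma adjusted p = 0.188). Sox10 was the 1 melanocytic marker whose groups did not overlap. Markers of other types also did not overlap and were higher in Gli2CA, among them Egfl7 of endothelium (1.71, 1.87 and 3.70 FPKM against 0 in NTC) and the monocyte gene Cd14 (264 to 575 against 14.6 to 109 FPKM). Of 13 endothelial markers, 2 did not overlap upward and 1, Vwf, downward. Among 12 monocyte and macrophage markers these counts were 4 and 0, and among 10 dendritic cell genes 1 and 5. For all genes tested the shares were 10.9% and 5.79%. Gpnmb, which macrophages also express, accounted for most of the melanocytic sum in NTC 2, at 15.5 FPKM. The part of these cells in the collagen values was not tested.

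**Figure D5:**
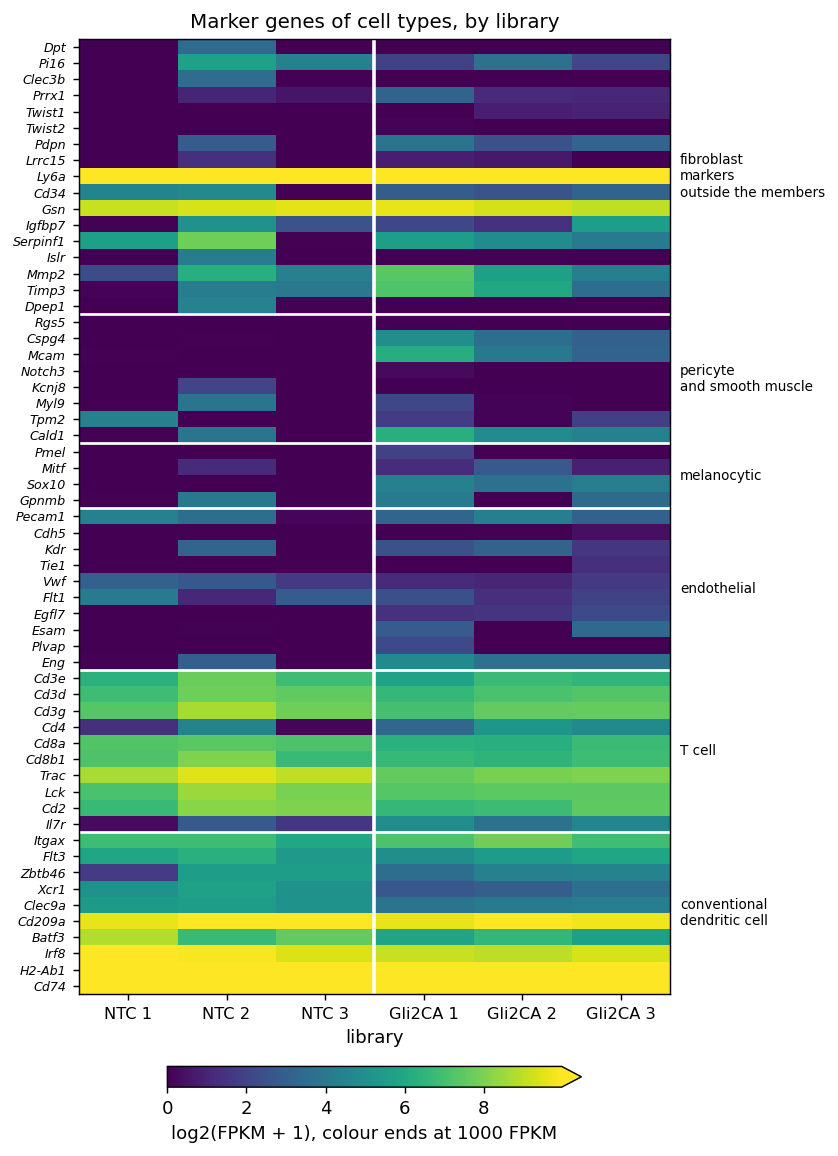
Level of marker genes (rows, grouped by list, genes at 0 in all libraries left out) in each library (columns) as log2(FPKM + 1), with colours ending at 1000 FPKM. Dpt, Clec3b and Islr are lit in NTC 2 alone, Sox10, Mcam and Cspg4 in the 3 Gli2CA libraries, and dendritic cell genes in all 6. T cell genes are lit in all 6 too, except Cd4 in NTC 3 and Il7r in NTC 1, both under 1 FPKM.

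The remaining 7 lists held 0 genes called by limma (smallest adjusted p = 0.178). Endothelial markers summed to 42.6, 33.6 and 8.84 FPKM in NTC and 55.8, 43.4 and 41.7 FPKM in Gli2CA, with Tek, Emcn and Cldn5 at 0 in all libraries. Epithelial markers summed to 18.7 to 37.0 FPKM in NTC and 30.1 to 62.3 in Gli2CA, where Krt14, a keratin of basal epithelium, had 46.2, 4.04 and 21.5 FPKM against 0 in all NTC libraries. Skeletal muscle and adipocyte markers summed to at most 16.9 FPKM. T cell markers summed to 1320, 2655 and 1799 FPKM in NTC and 947, 1174 and 1340 in Gli2CA, and NK cell markers to 1107, 2116 and 1257 against 1192, 1129 and 1449. The conventional dendritic cell list summed to 55214 to 69575 FPKM in NTC and 44774 to 53806 in Gli2CA, and the monocyte and macrophage list to 6787 to 9523 and 6206 to 10629 FPKM. NTC 2, with the most collagen, had the highest T cell and NK cell sums and the lowest dendritic cell sum of the NTC group. H2-Ab1 and Cd74, at 31696 and 20804 FPKM in NTC 2, made up most of that dendritic cell sum. Of the 10 dendritic cell genes, 4 were highest in NTC 2 of all 6 libraries, Flt3, Zbtb46, Xcr1 and Clec9a.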

How the data were processed

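The authors deposited FPKM values, 1 table with 54532 Ensembl gene IDs and 6 columns. Aligner, counting tool, genome build, annotation and use of strand were not given in the sources used here. Per the labels' protocols, poly-T beads captured the messenger RNA and random hexamers primed it. Columns were matched by the sample descriptions and named by title number, so NTC 2 and NTC 3 are the columns numbered 3 and 4. A gene name table gave 54409 IDs a symbol, and coordinates and mean transcript lengths came from GENCODE M21 on GRCm38. Each FPKM times that length was a whole number of library-specific steps for 96.2 to 97.0% of low values (tolerance 0.05 fragments), which gave the fragment numbers. Those mean lengths include short annotated transcripts. Intervals and floors cover counting error only.

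Groups were compared with limma 3.58.1 (R 4.3.3) fitted to log2(FPKM + 1), with a variance trend and no covariate, in the 12266 genes averaging 1 FPKM or more, and p-values (two-sided) were adjusted by Benjamini-Hochberg over these. The test was checked on simulated data. An exact permutation test of 3 libraries against 3 cannot give a p below 0.1. The 34 genes and the 14 lists of 175 genes read beside them were chosen with earlier results of these data known. Named genes were all 34 and, of each list, up to 4 with the highest mean. Others are named where their marker or pattern is the point, after their values were seen. Alternatives were other pseudocounts, filters, scalings and variance models, voom on recovered fragments, replicate blocks and left-out libraries. Figures were drawn with Python 3.11.15 and matplotlib 3.10.9.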

Additional observations from a re-analysis of the deposited data

How the results depend on the processing

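With limma, 0 of the genes described passed under any alternative run, and 0 genes of the table did except after quantile normalization (21). Without both NTC 1 and NTC 3, the number of the 34 with the higher mean in Gli2CA was 11 in place of 19, and 19 in place of 4 had groups without overlap, where 54% in place of 16.6% of all genes tested did. Leaving out 1 library at a time gave 15 to 28 with the higher mean, 4 to 20 without overlap (20 without NTC 2, 8 without Gli2CA 3), where 21.6% to 37.6% of all genes tested did, and a ratio of summed FPKM of 0.471 to 12.6. After quantile normalization 8 of the 28 tested genes had groups without overlap (17% of all genes tested), and with voom 4. The number with the higher mean and the ratio were not recomputed for these, which hold only tested genes.

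Differences that changed sign did so mainly with the choice of NTC libraries. Without both NTC 1 and NTC 3 they were -5.65 for Col1a1, -4.40 for Col3a1, -1.73 for Col5a1, -0.75 for Col15a1, -1.50 for Col6a2, -0.59 for Sparc, -3.96 for Fbln2, -1.08 for Fbn1, -2.13 for Mgp, -1.35 for Bgn, -0.15 for Serpinh1 and -0.26 for Thy1. Quantile normalization gave -0.79 for Col1a1, -0.16 for Col5a1, -0.58 for Fbln2 and -0.07 for Fbn1. A pseudocount of 0.1 gave 0.45 for Col1a2 and 0.15 for Lox, and voom gave 0.75 and 1.84. The cause of these reversals was not tested. Over the fits that left out 1 library, Col1a1 ran from -1.06 to 3.60, Col1a2 from -2.51 to 2.24, Col5a1 from -0.16 to 1.92, Col14a1 from -1.81 to 0.00, Col15a1 from -0.27 to 1.14, Fbln1 from -1.63 to 0.01, Fbln2 from -0.95 to 2.24, Lox from -0.90 to 0.71, Mfap5 from -2.00 to 0.70, Mgp from -0.28 to 2.29 and Thy1 from -0.12 to 0.75. Over all alternatives and tested genes of the list, 431 differences kept their sign and 37 changed it.

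Same-numbered libraries showed no shared deviation from their group means across genes, with correlations of -0.0418, -0.00178 and -0.00656 by title number. By description number the correlations were -0.0418 and -0.0641. Such correlations cannot tell whether the libraries were paired by design. A replicate block by description number gave -0.58 for Col15a1 and -0.70 for Col1a1 and called 0 genes (393 at an unadjusted p under 0.05), as did a block by title number (1088). Fragment numbers limit NTC 1 and NTC 3, where 26 and 25 of the 34 genes had fewer than 10 fragments.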
